A study of Homo sapiens with 21 samples.

Results

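DNA replication and S-phase genes are described here in MDA-MB-436 cells depleted of RNF8. The set is a list of 38 named genes, all found among the 26485 genes of the count table. They are 7 for the MCM helicase (MCM2 to MCM7, and MCM10, which binds it), 4 of origin licensing and 5 of helicase activation. The others are 5 of the sliding clamp and loader, 6 polymerase genes, 2 of Okazaki fragment processing, 5 of nucleotide supply and 4 S-phase regulators. MDA-MB-436 is an established human breast cancer cell line with a mesenchymal character. RNF8 attaches ubiquitin to proteins at broken DNA. The series concerns R-loops, in which an RNA stays base-paired to one DNA strand and leaves the opposite strand single.

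The cells labelled shRNF8 carried a doxycycline-inducible lentiviral hairpin against RNF8, and the cells labelled shScr carried a control hairpin delivered in the same way. The labels give no dose or length of induction. The labels name a single hairpin against RNF8, so effects of losing RNF8 and other effects of that hairpin cannot be told apart. Polyadenylated RNA was sequenced in 3 shRNF8 and 3 shScr libraries. DNA-RNA hybrids were pulled down from sonicated chromatin with the hybrid-binding antibody S9.6 (DRIP-seq) in 4 shRNF8 and 2 shScr libraries, and another 4 shRNF8 and 2 shScr libraries were RNase-treated. The kind of RNase is given as a code, and the 3 input libraries were not analysed here. Whether replicates are separate cultures is not stated, so the p-values reflect the spread among these libraries alone, and part of it may be technical.

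Replication starts when the origin recognition complex, CDC6 and CDT1 load the MCM helicase onto DNA in G1 phase. In S phase CDC45 and the GINS complex join MCM to form the active helicase, the clamp loader RFC places the PCNA ring on DNA, and polymerases alpha, delta and epsilon copy the strands. Many of these genes are transcribed together at the start of S phase under E2F factors, and transcribed genes can form R-loops that a replication fork may meet.

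The RNA libraries held 18121181 to 20006954 counts. RNF8 itself had 9.33, 9.99 and 7.94 CPM (counts scaled to library size by the TMM method) in the shRNF8 libraries, against 28.9, 29.1 and 28.0 CPM in the shScr libraries, which fits their labels. The line's markers VIM, CD44 and AXL were high, while ESR1, PGR, CDH1, PTPRC, CD3E and CDH5 were at or near 0 in all 6 libraries. CD68, listed as an immune marker, was present at 142, 152 and 141 CPM in shRNF8, against 131, 108 and 125 CPM in shScr. The S9.6 lists held 32358 to 50963 peaks. The peaks covered 39.5, 34.4, 83.5 and 79.0 Mb in shRNF8 replicates 1 to 4, against 47.6 and 43.4 Mb in shScr replicates 1 and 2. Peaks of shRNF8 replicates 3 and 4 are named with the stems used for replicates 1 and 2, although the peaks themselves differ. Whether they come from other samples than replicates 1 and 2 was not settled by the files. They are counted as separate samples, as labelled, in every n = 4, SD and permutation below. The lists of replicates 3 and 4 cover far more bases than those of replicates 1 and 2.

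All 38 genes were expressed strongly enough to be tested among 14018 genes, and none was called higher or lower in shRNF8 RNA. Their differences were small: all 38 lay within 1.5-fold, with log2 fold changes from -0.15 for GINS1 to 0.48 for GINS3. Of the 38, 29 had a positive value, and the median was 0.11, against -0.00 over all genes tested. The call was made by edgeR's quasi-likelihood test at a Benjamini-Hochberg adjusted p under 0.05 over all genes, which called 0.97% of genes higher and 1.57% lower. At an unadjusted p under 0.05, 7 of the 38 were higher and 0 lower by edgeR, against a background of 9.03% higher, while 1547 of the 14018 genes were lower. DESeq2 and limma-voom also called 0 of the 38 after adjustment. The expression levels of 5 genes (CDC6, CDC45, GINS3, GINS4 and RFC5) did not overlap between groups with shRNF8 higher, against a background of 12.5% of genes tested, and POLD3 did not overlap with shRNF8 lower, against 12.8%. A count of 5 of 38 is close to the background. In bulk RNA, a change in the number of S-phase cells and a change in RNA per cell cannot be told apart.

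One shScr library stood apart, over all genes as well as for these. It was shScr replicate 1, which had the highest value of the 3 shScr libraries for 37 of the 38 genes. Over all genes tested it was the highest for 42.0% and the lowest for 42.2%. Leaving it out raised the edgeR calls over all genes from 136 higher and 220 lower to 1823 and 2042. On a log2 CPM scale centred on the shScr mean of each gene, the 38 genes averaged 0.11, 0.10 and 0.19 in shRNF8 replicates 1 to 3, against 0.22, -0.12 and -0.10 in shScr replicates 1 to 3. The shRNF8 libraries thus lay above shScr replicates 2 and 3 but not above shScr replicate 1, which exceeded every shRNF8 library for 20 of the genes. For 25 of the 38 genes all shRNF8 libraries were above shScr replicates 2 and 3, against a background of 27.7% of genes tested.

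**Figure D1:**
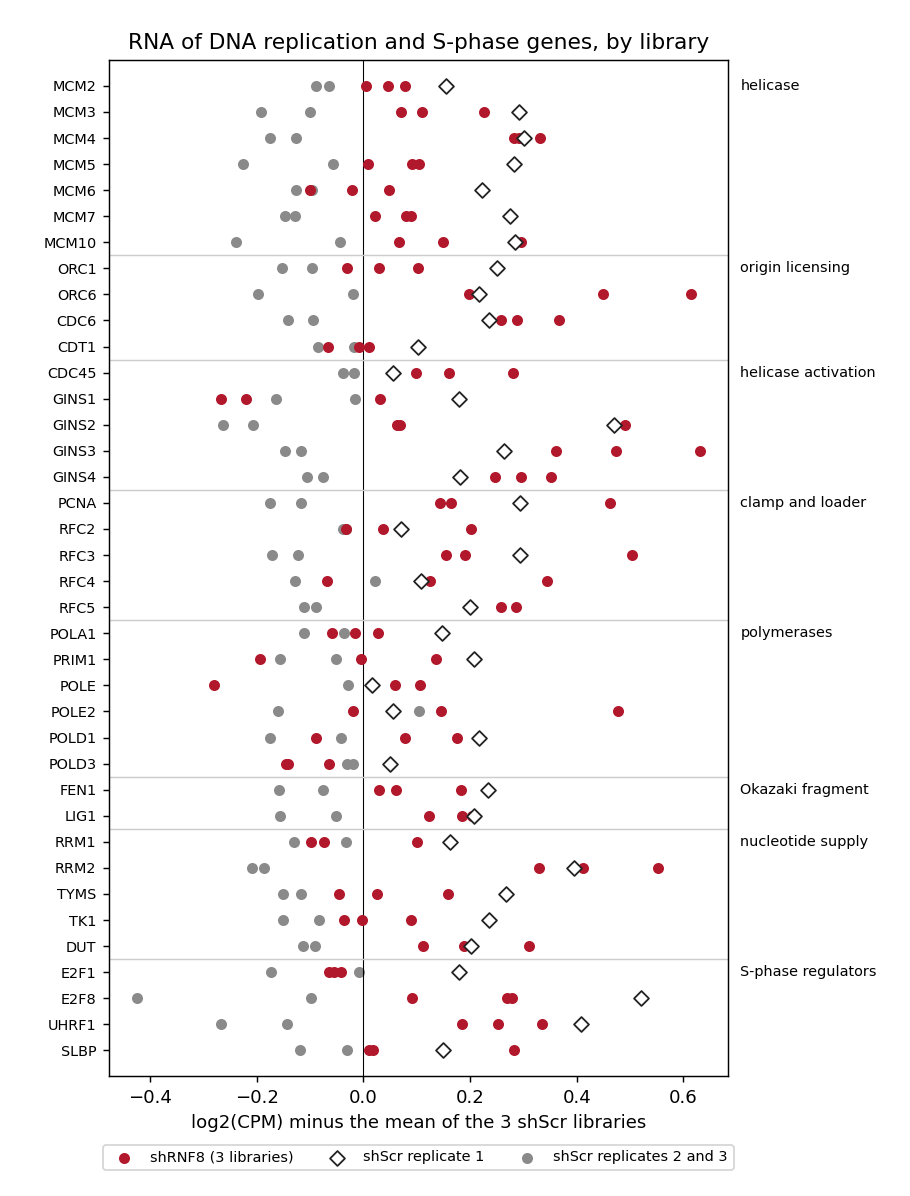
RNA of the 38 genes by library, grouped by role: the horizontal axis is log2(CPM) minus the mean of the 3 shScr libraries, red points are the 3 shRNF8 libraries, diamonds shScr replicate 1 and grey points shScr replicates 2 and 3. The diamonds are the highest of the shScr values in 37 of 38 rows, and the red points mostly lie between the diamonds and the grey points or beside the diamonds.

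Without shScr replicate 1, edgeR called 16 of the 38 genes higher and 0 lower, which is 42.1%, against a background of 12.8% higher and 14.3% lower. The 16 were MCM3, MCM4, MCM10, ORC6, CDC6, GINS2, GINS3, GINS4, PCNA, RFC3, RFC5, LIG1, RRM2, DUT, E2F8 and UHRF1. Their log2 fold changes without that library ran from 0.28 for LIG1 to 0.63 for RRM2, and their edgeR adjusted p-values reached 0.0273 at most. The median over the 38 was then 0.21. No member was called when any other single library was left out, but those fits called few genes at all, 0.12% to 0.38% higher and 0.20% to 0.55% lower. The 16 calls thus depend on leaving out shScr replicate 1, and the 0 calls of the other fits say little about the members. What sets shScr replicate 1 apart was not tested.

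Among the helicase genes, MCM4, a subunit of the ring that opens the DNA, had the highest level. It had 600, 604 and 620 CPM in shRNF8, against 607, 437 and 452 CPM in shScr, so the shRNF8 libraries were level with shScr replicate 1 and above the other two. Its log2 fold change was 0.29 ± 0.12 (SE), with an edgeR adjusted p of 0.218. MCM10, which binds the ring as the helicase starts, had 51.9, 49.0 and 57.4 CPM in shRNF8, against 56.9, 39.6 and 45.4 CPM in shScr, and its groups overlapped (log2 fold change 0.16, edgeR adjusted p = 0.533). The other 5 subunits, MCM2, MCM3, MCM5, MCM6 and MCM7, had log2 fold changes of -0.03 to 0.12.

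Of the licensing genes, ORC6, the smallest subunit of the origin recognition complex, had 40.8, 48.5 and 54.4 CPM in shRNF8, against 41.3, 35.1 and 31.0 CPM in shScr. The groups met only at shRNF8 replicate 1 and shScr replicate 1, and the edgeR adjusted p was 0.118 for a log2 fold change of 0.42 ± 0.13 (SE). CDC6, which loads the helicase with ORC, had 95.5, 93.6 and 101 CPM in shRNF8, against 92.2, 70.9 and 73.3 CPM in shScr. The CDC6 groups did not overlap, yet its log2 fold change of 0.29 ± 0.11 (SE) had an edgeR adjusted p of 0.167. CDT1, the loading partner of CDC6, had a log2 fold change of -0.02 and ORC1 one of 0.02.

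The GINS complex holds CDC45 to the MCM ring, and none of its 4 subunits passed the test. GINS3 had 21.0, 17.4 and 18.8 CPM in shRNF8, against 16.3, 12.5 and 12.3 CPM in shScr, with no overlap and the lowest edgeR adjusted p of the set, 0.102 (log2 fold change 0.48 ± 0.15, SE). GINS4 also did not overlap, with 42.2, 40.8 and 43.9 CPM in shRNF8, against 39.1, 32.0 and 32.7 CPM in shScr (log2 fold change 0.29, edgeR adjusted p = 0.160). GINS1 had a log2 fold change of -0.15, GINS2 one of 0.18 and CDC45 one of 0.18. CDC45 did not pass the test either, and differences between the subunits were not tested.

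The clamp and its loader were on the positive side in all 5 genes, with log2 fold changes of 0.07 to 0.28 and a median of 0.24. RFC5, a small subunit of the loader, had 77.6, 80.8 and 82.3 CPM in shRNF8, against 77.6, 63.5 and 62.6 CPM in shScr. Its lowest shRNF8 value was only just above shScr replicate 1, and the log2 fold change of 0.24 had an edgeR adjusted p of 0.222. RFC3, another small subunit, had 55.2, 53.9 and 68.5 CPM in shRNF8, against 59.3, 42.9 and 44.4 CPM in shScr, and overlapped (log2 fold change 0.28, edgeR adjusted p = 0.299). PCNA, the ring itself, had a log2 fold change of 0.25 (edgeR adjusted p = 0.333).

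The polymerase genes were centred near 0, with a median log2 fold change of -0.02 over 6 genes. POLE2, a non-catalytic subunit of polymerase epsilon, had 11.9, 13.3 and 16.8 CPM in shRNF8, against 12.5, 13.0 and 10.8 CPM in shScr, and its groups overlapped (edgeR adjusted p = 0.475). POLD3, a non-catalytic subunit of polymerase delta, had 42.3, 40.1 and 40.0 CPM in shRNF8, against 45.8, 43.3 and 43.6 CPM in shScr. Every shRNF8 library was below every shScr library, with a log2 fold change of -0.12 and an edgeR adjusted p of 0.499.

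For Okazaki fragments, the ligase LIG1 had 79.3, 78.3 and 75.0 CPM in shRNF8, against 79.5, 61.8 and 66.4 CPM in shScr. The flap nuclease FEN1 had 147, 144 and 160 CPM in shRNF8, against 166, 127 and 134 CPM in shScr. The groups overlapped for both genes, with log2 fold changes of 0.16 and 0.08 (edgeR adjusted p = 0.416 and 0.712).

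In nucleotide supply, RRM2, the small subunit of ribonucleotide reductase, had the highest level per length of the whole set, a mean of 236 FPKM (CPM per kilobase of exon) over 6 libraries. It had 911, 860 and 1004 CPM in shRNF8, against 900, 602 and 593 CPM in shScr. The shRNF8 libraries lay on both sides of shScr replicate 1 and well above the other two, and the log2 fold change of 0.41 ± 0.15 (SE) had an edgeR adjusted p of 0.170. DUT, which removes dUTP, had 85.1, 80.7 and 92.6 CPM in shRNF8, against 85.9, 69.0 and 70.1 CPM in shScr (log2 fold change 0.20, edgeR adjusted p = 0.328). TK1, the S-phase thymidine kinase, gave the same mean of 165 CPM in both groups: 174, 159 and 163 CPM in shRNF8, against 192, 147 and 154 CPM in shScr. RRM1 and TYMS had log2 fold changes of -0.03 and 0.04.

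Of the regulators, UHRF1, which guides maintenance DNA methylation behind the fork, had 243, 230 and 219 CPM in shRNF8, against 256, 160 and 175 CPM in shScr (log2 fold change 0.23, edgeR adjusted p = 0.431). SLBP, which binds the stem-loop of histone mRNAs, had 180, 181 and 217 CPM in shRNF8, against 198, 165 and 175 CPM in shScr. The groups overlapped for both. The transcription factors E2F1 and E2F8 had log2 fold changes of -0.06 and 0.16, and neither passed the test.

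Among 50 other replication genes, such as RPA and further ORC and polymerase subunits, 0 were called in either direction, with 10 higher and 1 lower at an unadjusted p under 0.05 by edgeR; DESeq2 called 1 higher. Their median log2 fold change was 0.09. Over all genes tested, DESeq2 called 2.31% higher and 3.82% lower. For 20 genes of G2 and mitosis, edgeR called 0 and DESeq2 called 1 lower, with 2 genes on each side at an unadjusted p under 0.05 and a median of 0.07. Of 14 regulators of G1 phase, DESeq2 called 3 higher and 1 lower, and edgeR called 1 lower: CDKN1B, an inhibitor of cyclin-dependent kinases, at 51.0, 47.4 and 49.6 CPM in shRNF8, against 83.3, 86.3 and 80.9 CPM in shScr (edgeR adjusted p = 0.00259 for a log2 fold change of -0.76 ± 0.09, SE). For CDKN1B, shScr replicate 1 lay between the other shScr libraries. Without shScr replicate 1, edgeR called 18 of the 50 other replication genes higher and 0 lower, 6 of the 20 genes of G2 and mitosis higher and 1 lower, and 6 of the 14 regulators of G1 higher and 2 lower, against a background of 12.8% of all genes higher and 14.3% lower.

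In DRIP-seq, a gene was scored over its body and 5000 bp downstream. A peak was present in all 6 S9.6 libraries for 18 of the 38 genes, in 1 to 5 libraries for 17 and in none for 3 (GINS3, POLE2 and POLD3). The share with a peak in all 6 was 47.4%, against 45.3% of the 13541 genes tested in RNA that have a single locus. It was 55.2% of such genes within the range of FPKM that the 38 genes span. Within the interquartile range of the 38 genes (17.3 to 58.5 FPKM), it was 61.6% of 2814 such genes. By library, 28, 20, 28 and 31 of the 38 had a peak in shRNF8 replicates 1 to 4, against 23 and 23 in shScr. That was 73.7%, 52.6%, 73.7% and 81.6% of the 38 in shRNF8, against 60.5% and 60.5% in shScr. Of the genes tested in RNA, 60.3%, 54.4%, 66.2% and 65.1% had a peak in shRNF8, against 67.1% and 62.0% in shScr. In the RNase-treated libraries 0 of the 38 had a peak in any of the 4 shRNF8 or 2 shScr lists, against a background of 3.30% of the genes tested in RNA. Those lists held only 254 to 1912 peaks, and a count of 0 of 38 is close to that background. The peak lists give no strand, and 21 of the 38 windows also hold another gene, so a peak there cannot be assigned to 1 gene.

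The signal was strong at CDT1, whose window was covered over all 10481 bp in every library but shScr replicate 1, where 10146 bp were covered. Among peaks with their summit inside its window, the highest fold enrichment, a value per peak deposited by the authors, was 51.9, 34.3, 25.0 and 17.6 in shRNF8 replicates 1 to 4, against 17.0 and 24.4 in shScr. That summit lay 8085 bp from the start of CDT1, past the end of the gene at 5481 bp, in all 4 shRNF8 libraries and shScr replicate 1, and inside the gene in shScr replicate 2. Of all summits inside the 38 windows, the one at CDT1 was the highest in every library but shRNF8 replicates 3 and 4, where summits past the end of TK1 had 33.2 and 23.8. The window of CDT1 also holds APRT and GALNS, and that of TK1 holds SYNGR2. The fold is a value within its own list and was not compared between groups.

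Peaks reached the promoters of some members, and their sequences are shown because S-phase promoters are known for E2F-type sites. The 250 bases before the RefSeq start (GRCh38.p14) were found for 33 of the 38 genes. The motifs TTTCCCGC, TTTCGCGC, TTTGCCGC and TTTGGCGC were searched on both strands, and a promoter counted once however many matches, overlapping or not, it held. A match was present in 13 of 33 (39.4%), against 4.41% of 10387 genes tested in RNA and 2.80% of all 27195 promoters. Median GC content was 68.4%, against 65.2% and 58.0%. The 13 were MCM3, MCM6, MCM7, CDT1, GINS2, PCNA, RFC3, POLA1, POLE, LIG1, TYMS, E2F1 and UHRF1.

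CDT1, E2F1 and POLD1 had a peak over this window in all 6 S9.6 libraries, while PCNA had one in 1 library. CDT1 lies at chr16:88803539-88803788 (plus strand), E2F1 at chr20:33686386-33686635 (minus strand), POLD1 at chr19:50384073-50384322 (plus strand) and PCNA at chr20:5126623-5126872 (minus strand). Matches are in capitals, and each sequence reads 5′ to 3′ toward the gene start.
CDT1: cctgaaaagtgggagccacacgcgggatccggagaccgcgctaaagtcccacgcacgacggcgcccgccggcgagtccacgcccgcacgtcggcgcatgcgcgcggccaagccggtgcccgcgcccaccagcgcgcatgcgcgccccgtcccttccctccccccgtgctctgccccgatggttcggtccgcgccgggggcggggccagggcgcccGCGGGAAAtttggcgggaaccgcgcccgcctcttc
E2F1: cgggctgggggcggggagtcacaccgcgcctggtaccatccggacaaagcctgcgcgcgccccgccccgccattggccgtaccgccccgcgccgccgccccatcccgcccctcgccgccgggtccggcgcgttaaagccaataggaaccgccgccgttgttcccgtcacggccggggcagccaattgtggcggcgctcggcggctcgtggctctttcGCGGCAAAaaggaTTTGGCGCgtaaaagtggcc
POLD1: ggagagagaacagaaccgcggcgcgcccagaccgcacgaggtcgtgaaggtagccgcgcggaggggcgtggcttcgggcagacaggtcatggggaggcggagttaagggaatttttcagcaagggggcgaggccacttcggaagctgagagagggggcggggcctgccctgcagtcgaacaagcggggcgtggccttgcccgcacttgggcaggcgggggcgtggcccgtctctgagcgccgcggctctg
PCNA: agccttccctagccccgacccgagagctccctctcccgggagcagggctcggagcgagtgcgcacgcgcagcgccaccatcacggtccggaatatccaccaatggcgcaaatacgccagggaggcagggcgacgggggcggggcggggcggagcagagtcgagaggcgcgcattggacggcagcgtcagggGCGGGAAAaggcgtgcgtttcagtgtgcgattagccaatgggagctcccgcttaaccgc
POLD1 has no match in these letters and PCNA has 1. Of the 13 promoters with a match, 5 had a peak over the window in all 6 libraries (MCM7, CDT1, POLE, LIG1 and E2F1), 5 in some and 3 in none. Of the 20 without a match, 3 had one in all 6 (POLD1, FEN1 and SLBP), 9 in some and 8 in none. Relative to the RefSeq start, the gene start of the count table was at -543 bp for MCM7, -182 bp for POLE and -259 bp for LIG1. It was at -274 bp for FEN1 and -422 bp for SLBP. For these genes the window thus lay mostly or wholly inside the gene as scored here. The same shares over all promoters were not counted, so these counts show no link between match and peak. A match is only a description of the sequence.

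Covered length differed between the groups for a few genes. It did not overlap, with shRNF8 higher, for 7 genes (MCM5, MCM7, ORC6, CDC45, RFC2, E2F1 and UHRF1), which is 20.0% of the 35 with a peak, against a background of 7.36%, and 0 genes were lower, against 7.65%. Among the 18 genes with a peak in all 6 libraries the share was 33.3%, against 11.2% of the genes tested in RNA with a peak in all 6. No gene can pass 0.05 here, since 4 against 2 libraries allow 15 splits and a smallest p of 0.0667 by an exact permutation test. The lowest two-sided exact permutation p of the 38 was 0.133. The count higher was 14 without shRNF8 replicate 2, against a background of 20.1%, and 11 without shScr replicate 2, against 10.0%. It was 4 for peaks with a -log10 q of at least 4, against 7.08%. With only shRNF8 replicates 3 and 4 it was 24, against 58.8% of all genes with a peak. With only replicates 1 and 2 it was 7, against 9.66%, and 5 were lower, against 37.6%. Set in same-numbered pairs, 8 genes were higher in shRNF8 in both pairs, against 12.2%, and 6 lower, against 40.0%.

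Because shRNF8 replicates 3 and 4 covered more bases in all, covered length was also set against each library's total, as covered bp per covered Mb. On that scale 7 genes were higher without overlap (MCM5, ORC6, CDC45, RFC2, POLD1, LIG1 and UHRF1), against a background of 7.16%, and RFC4 was lower, against 13.8%. MCM7 and E2F1 left the list and POLD1 and LIG1 joined it. Narrower backgrounds were above 7.16%. UHRF1, LIG1 and POLD1 lie on chromosome 19, where 129 of 860 tested genes with a peak were higher per covered Mb. CDC45 and MCM5 lie on chromosome 22, where 50 of 310 (16.1%) were. In covered bp, 129 and 38 genes were higher on these chromosomes. Of tested genes with a peak in all 6 libraries, 10.8% were higher per covered Mb. Whether the 38 genes exceed others on their own chromosomes was not tested.

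CDC45, the helicase partner of GINS on chromosome 22, showed the steadiest difference. Its peaks covered 8783, 6921, 16772 and 17041 bp in shRNF8 replicates 1 to 4, against 3166 and 3024 bp in shScr. Per covered Mb that was 222, 201, 201 and 216 bp in shRNF8, against 66.5 and 69.7 bp in shScr. The mean was 210 ± 10.7 bp in shRNF8 (SD, n = 4), against 68.1 ± 2.29 bp in shScr (SD, n = 2), a ratio of 3.08. Peaks lay in the last part of the gene in all 6 libraries and continued past its end in all but shRNF8 replicate 2, in a window that also holds CLDN5.

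UHRF1 on chromosome 19 was covered over 16624, 10626, 27778 and 24625 bp in shRNF8, against 8670 and 4779 bp in shScr. Per covered Mb the values were 421, 309, 333 and 312 bp in shRNF8, against 182 and 110 bp in shScr, a ratio of 2.35 with no overlap. A run of peaks near the end of the gene was present in every library and was widest in shRNF8 replicates 3 and 4.

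RFC2, the clamp loader subunit on chromosome 7, had 1367, 1410, 11760 and 12572 bp covered in shRNF8, against 673 and 287 bp in shScr. Here the size of the difference followed the kind of list: per covered Mb it was 34.6 and 41.0 bp in shRNF8 replicates 1 and 2 and 141 and 159 bp in replicates 3 and 4, against 14.1 and 6.62 bp in shScr. MCM5 showed the same split, with 1885, 1761, 10685 and 9064 bp in shRNF8, against 1699 and 1003 bp in shScr. ORC6 had 300, 262, 805 and 2639 bp in shRNF8, against 0 bp in both shScr libraries. The RFC2 window also holds LAT2, the ORC6 window MYLK3 and the UHRF1 window MIR4747.

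**Figure D2:**
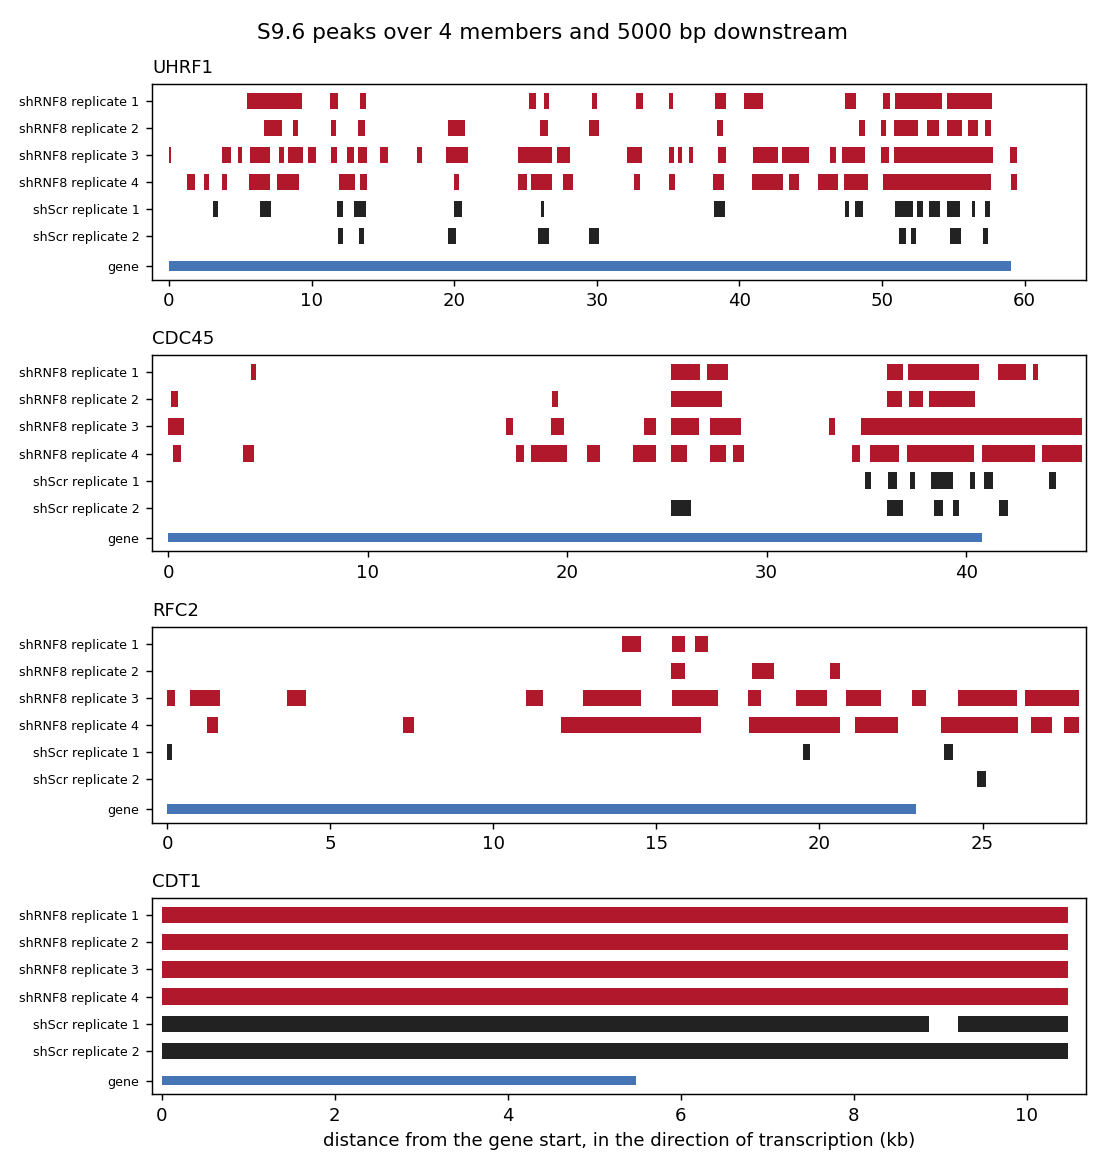
S9.6 peaks over UHRF1, CDC45, RFC2 and CDT1 in the 4 shRNF8 libraries (red) and the 2 shScr libraries (black), against distance from the gene start in kb, with the gene as a blue bar and 5000 bp downstream. Red peaks over UHRF1, CDC45 and RFC2 are wider or more numerous than black ones, while CDT1 is covered from end to end in both groups apart from a gap in shScr replicate 1.

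POLE, LIG1 and POLD1 were among the genes with the most covered sequence. POLE, the catalytic subunit of polymerase epsilon, had 23194, 17351, 33368 and 32409 bp covered in shRNF8, against 17822 and 18479 bp in shScr. LIG1 had 17781, 12472, 35291 and 38330 bp in shRNF8, against 15683 and 12695 bp in shScr. POLD1, the catalytic subunit of polymerase delta, had 13549, 9920, 21775 and 20906 bp in shRNF8, against 9892 and 10060 bp in shScr. In all 3 genes shRNF8 replicate 2 fell within or below the shScr values while replicates 3 and 4 were far above them.

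E2F1, MCM7, TK1 and RRM2 also carried long coverage. E2F1 had 14304, 11239, 15637 and 15919 bp covered in shRNF8, against 10143 and 10470 bp in shScr, of a window of 15919 bp that also holds NECAB3. MCM7 had 9181, 9065, 13904 and 13892 bp in shRNF8, against 8856 and 8417 bp in shScr, in a window shared with COPS6, AP4M1 and 3 miRNA genes. For both genes shRNF8 was higher without overlap in bp, but the groups overlapped per covered Mb. TK1 had 8872, 9203, 13398 and 13161 bp in shRNF8, against 8500 and 9026 bp in shScr. RRM2 had 10012, 7333, 11904 and 11530 bp in shRNF8, against 6717 and 8980 bp in shScr. The groups overlapped through shRNF8 replicate 1 at TK1 and through shRNF8 replicate 2 at RRM2.

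MCM2 had 8504, 6073, 15320 and 17238 bp covered in shRNF8, against 8613 and 4348 bp in shScr. MCM4 had 1135, 1077, 4059 and 4419 bp in shRNF8, against 2266 and 970 bp in shScr. RFC5 had 1438, 882, 5776 and 5317 bp in shRNF8, against 1525 and 1127 bp in shScr. In each, shRNF8 replicates 1 and 2 were within or below the shScr values and replicates 3 and 4 above them. For 3 of the genes with a peak in every library, the first pair of shRNF8 libraries was below both shScr libraries and the second pair above them. FEN1 had 1629, 1117, 5982 and 7488 bp in shRNF8, against 3306 and 3517 bp in shScr. TYMS, the thymidylate synthase, had 927, 407, 7521 and 7067 bp in shRNF8, against 2635 and 2721 bp in shScr. SLBP had 5524, 4817, 11983 and 13943 bp in shRNF8, against 8121 and 7265 bp in shScr. GINS2, without a peak in shRNF8 replicate 2, was split in the same way. It had 537, 0, 1929 and 1821 bp in shRNF8, against 1614 and 997 bp in shScr. The direction at FEN1, TYMS, SLBP and GINS2 thus depends on which shRNF8 lists are used.

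**Figure D3:**
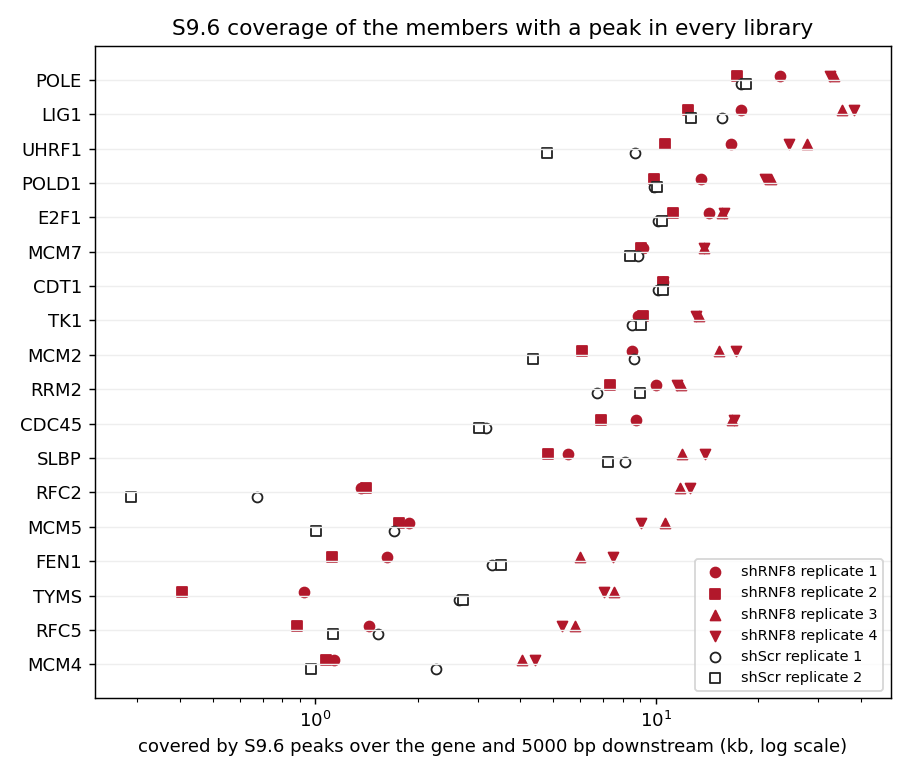
Bases covered by S9.6 peaks over the gene and 5000 bp downstream for the 18 genes with a peak in every library, in kb on a log axis, with the 4 shRNF8 libraries in red and the 2 shScr libraries as open black symbols. CDC45, UHRF1 and RFC2 have all red symbols to the right of the open ones, while at FEN1, TYMS and SLBP the red symbols lie on both sides.

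The 17 genes with a peak in some libraries had short coverage. Of them, 10 had peaks in shRNF8 libraries alone (MCM3, MCM10, ORC1, ORC6, GINS1, PCNA, RFC3, POLA1, PRIM1 and E2F8), and MCM6 had one in shScr alone, in 1 library. The counts are not like for like, since there were 4 shRNF8 lists and 2 shScr lists, and ORC6 was the only one of the 10 with a peak in every shRNF8 library. The same shares over all genes were not counted, so these counts only describe the 17 genes. E2F8 had 2902 and 3019 bp covered in shRNF8 replicates 3 and 4 and 0 bp in the other shRNF8 and both shScr libraries. CDC6, GINS2, GINS4, RFC4, RRM1 and DUT had peaks in both groups, with at most 2362 bp covered in any library.

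As a share of all bases covered by peaks, the 38 windows held more in shRNF8 than in shScr. They made up 0.407%, 0.356%, 0.342% and 0.370% of covered bases in shRNF8 replicates 1 to 4, against 0.277% and 0.277% in shScr, with means of 0.369% ± 0.0278 (SD, n = 4) and 0.277% ± 6.29e-05 (SD, n = 2). Every shRNF8 library was above both shScr libraries, and the ratio of the means was 1.33. Leaving out any 1 gene kept the ratio between 1.27 (without UHRF1) and 1.37 (without CDT1). The genes tested in RNA held 82.6% to 84.4% in shRNF8, against 82.5% and 83.4% in shScr, a ratio of 1.01.

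By role, the ratio was 2.29 for helicase activation, 2.81 for the clamp and its loader, 1.44 for the S-phase regulators, 1.39 for the helicase and 1.24 for the polymerases, each with no overlap between groups. It was 1.27 for Okazaki fragment genes, 1.07 for nucleotide supply and 1.03 for origin licensing, with overlap. CDC45 alone gave most of the coverage of helicase activation. The clamp and its loader held 0.00739%, 0.00739%, 0.0217% and 0.0244% in shRNF8 replicates 1 to 4, against 0.00607% and 0.00476% in shScr, so the size of their ratio came mostly from replicates 3 and 4, where RFC2 was widely covered. The 50 other replication genes had a ratio of 1.20 with no overlap, while 20 genes of G2 and mitosis (1.13) and 14 regulators of G1 (1.15) overlapped. Tested genes on chromosome 22, where CDC45 and MCM5 lie, also did not overlap, at a ratio of 1.07, and those on chromosome 19, where UHRF1, LIG1 and POLD1 lie, had a ratio of 1.08 with overlap. These shares are a description, and no test was made over the members.

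**Figure D4:**
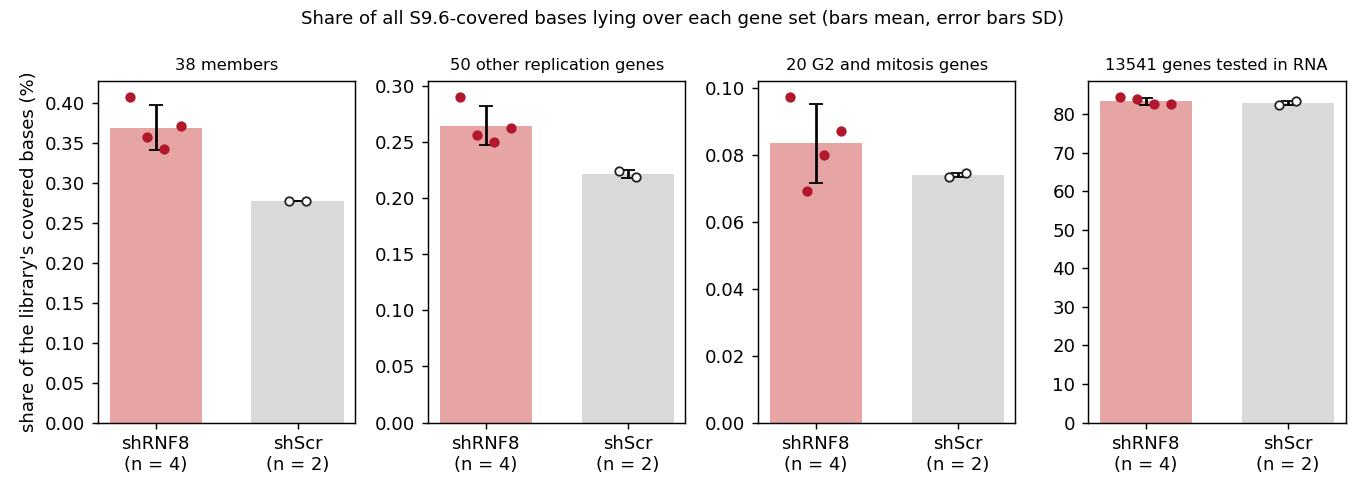
Share of each library's S9.6-covered bases that lies over 4 gene sets, in percent: bars are means, error bars SD and points libraries, with shRNF8 (n = 4) left of shScr (n = 2). The 38 genes take 0.342% to 0.407% in shRNF8 and 0.277% in both shScr libraries, while the share of all tested genes is above 80% in every library.

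S9.6 coverage was also set beside RNA level and RNA change. Over the 38 genes Spearman's rho between mean FPKM and the mean share of the window covered was 0.58 (n = 38), against 0.43 over 13541 genes tested in RNA. The genes share libraries and differ in length and base composition, so the value is a description. Over the 18 genes with a peak in every library, rho between the RNA log2 fold change and the ratio of coverage per covered Mb was 0.22 (n = 18). Of these 18, 14 had a ratio above 1 and the median was 1.19, against a median of 0.97 and 46.4% above 1 over 6136 genes tested in RNA with a peak in every library. CDC45 and RFC2, with the largest ratios of coverage, had RNA log2 fold changes of 0.18 and 0.07.

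**Figure D5:**
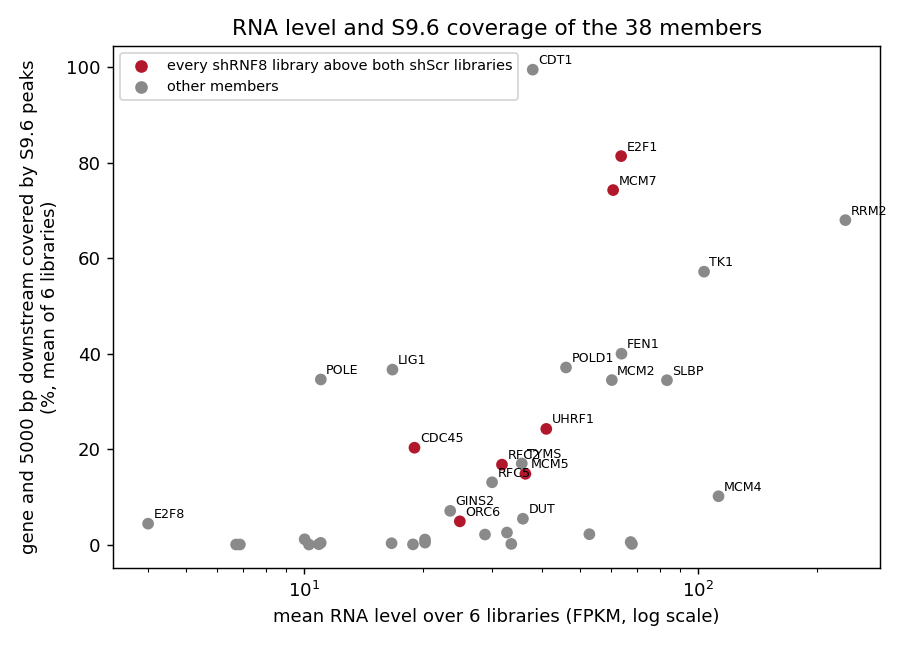
Mean RNA level in FPKM (log axis) against the mean share of the gene and 5000 bp downstream covered by S9.6 peaks in percent, for the 38 genes over 6 libraries each. RRM2, with 236 FPKM, and CDT1, E2F1 and MCM7 stand high, and red points are the 7 genes whose covered length did not overlap between shRNF8 and shScr.

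Most summits over the 38 genes lay in gene bodies: 66.1% to 77.8% by library, with 7.39% to 11.3% within 1000 bp of the start and 13.5% to 22.9% from 1000 bp before to 5000 bp after the end. Over genes tested in RNA 62.0% to 70.9% lay in the body, 10.7% to 16.0% at the start and 17.9% to 23.8% at the end. At the end, the 38 genes had 15.7%, 13.5%, 14.4% and 14.8% of summits in shRNF8 replicates 1 to 4, against 18.8% and 22.9% in shScr. In the body they had 73.0%, 77.5%, 76.7% and 77.8% in shRNF8, against 70.8% and 66.1% in shScr. The groups did not overlap in either place for these genes. Over genes tested in RNA the end share was 22.1%, 23.0%, 17.9% and 18.4% in shRNF8, against 22.4% and 23.8% in shScr. There the body share was 62.0%, 62.7%, 70.7% and 70.9% in shRNF8, against 64.3% and 63.4% in shScr. Both shares overlapped between groups over tested genes, and the difference between the 38 genes and other genes was not tested. POLE was the only gene with a start summit in every library, while 12 genes had a body summit and 5 an end summit in all 6 (POLD1, LIG1, RRM2, TK1 and SLBP).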

How the data were processed

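RNA-seq and DRIP-seq files of 18 of the 21 samples were used, grouped by the hairpin and replicate number in the sample titles. The deposited RNA table holds raw fragment counts per gene, made by the authors with featureCounts on hg38 without a strand option, per the file headers, so reads of genes that overlap, on either strand, are not separable. The authors deposited 1 peak list per DRIP library, with a fold enrichment (a linear ratio) and -log10 p and q values for each peak, and peaks were called per sample. The submitters' processing notes name Trim Galore 0.6.6, Bowtie2 2.2.6, STAR 2.7.9a, SAMtools 1.14, Picard 2.10.9, MACS2 2.2.7.1, deepTools 3.5.1 and Subread 2.0.1 and the build hg38, with no roles. How deeply the DRIP libraries were read is unknown.

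Counts were filtered by filterByExpr, scaled by TMM and tested in R 4.3.3 with edgeR 4.0.16 (quasi-likelihood F test with robust glmQLFit, no covariates, biological coefficient of variation 12.4%), with Benjamini-Hochberg adjustment over 14018 genes. DESeq2 1.42.0 and limma 3.58.1 were alternatives. FPKM is the CPM divided by the table's exon length. Peaks were joined to genes with a single locus on chromosomes 1 to 22 and X (24993 genes) with Python 3.11.15, NumPy 2.4.6, pandas 2.3.3 and SciPy 1.17.1, and covered bases were compared by two-sided exact permutation over libraries. Figures were drawn with matplotlib 3.10.9. Both steps were tested on simulated data. Promoters came from RefSeq.

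The members and the gene lists were chosen with earlier results of these data known. RNA values by library were given for the 2 genes of each role with the smallest unadjusted edgeR p and the 3 with the highest FPKM, and S9.6 values for the genes with a peak in all 6 libraries. ORC6, E2F8, CDKN1B and a few others were named after their values were seen. The result of 1 marker gene is not reported here.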

Additional observations from a re-analysis of the deposited data

Results flagged for a closer look

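Of 42 groups of 4 libraries checked for 1 value far from the others, 5 had such a value, all of them covered length in shRNF8 S9.6 libraries for genes with a peak in 1 of the 4. With 0 bp in 3 libraries, any peak in the other stands apart by construction, so the rate of about 1 in 20 groups that chance gives does not apply to these 5. MCM10 had 1132 bp covered in shRNF8 replicate 1 and 0 bp in the other 3. GINS4 had 826 bp in shRNF8 replicate 1 and 0 bp in the other 3, and 544 bp in shScr replicate 1. PCNA had 115 bp in shRNF8 replicate 1 and 0 bp in the other 3. RFC3 had 287 bp in shRNF8 replicate 4 and 0 bp in the other 3. POLA1 had 1221 bp in shRNF8 replicate 4 and 0 bp in the other 3.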

How the results depend on the processing

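The number of members called higher in RNA was 0 under other scalings, filters, DESeq2 and limma-voom, and ran from 0 to 16 when 1 library was left out, with 16 without shScr replicate 1. That fit called 12.8% of all genes higher, and the other fits with 1 library left out called at most 0.38%. The median log2 fold change ran from 0.03 (without shScr replicate 2) to 0.21 and stayed positive. Over 17 named genes and 14 settings, 223 of 238 results kept direction and side of the threshold, 12 passed the threshold without shScr replicate 1, and 3 turned: the TK1 log2 fold change ran from -0.067 to 0.14 as 1 library was left out, with -0.027 without shRNF8 replicate 1, -0.067 without shScr replicate 2 and -0.034 without shScr replicate 3. With the replicate number as a block, 0 members were called and the median was 0.12. Across genes, the deviations of same-numbered samples from their group means correlated at -0.05, 0.11 and -0.23. These values cannot decide whether same-numbered samples share a batch, which the labels do not state. The block raised calls over all genes to 205 higher and 296 lower, against 136 and 220. For the DRIP lists, numbers 1 and 2 are shared: with the replicate block, chosen after seeing the data, 8 members had higher covered length in both pairs, against 12.2% of all genes with a peak, and 6 lower, against 40.0%. With 2 pairs the smallest exact p is 0.5.

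The count of genes with higher covered length and no overlap was 7, 4 for a -log10 q of at least 4 (background 7.08%), and 7 to 14 with 1 library left out (20.1% where it was 14, without shRNF8 replicate 2). Chosen after seeing the data, shRNF8 replicates 3 and 4 alone gave 24 (58.8%) and replicates 1 and 2 alone gave 7 (9.66%). The count lower was 0, 0 to 1 with 1 library left out, 5 with shRNF8 replicates 1 and 2 alone (37.6%) and 1 per covered Mb (13.8%). The share of covered bases, also chosen after seeing the data, differed by 0.0787 to 0.104 points in every setting tried, against 0.0915 as reported. The cause of these shifts was not tested. The unknown depth of the DRIP libraries and 2 shScr libraries limit what covered length can show.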
